A study of Mus musculus with 240 samples.

Results

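The 7 gliomas described here grew in 7 mice and were collected in bulk 150 days after the start of tamoxifen (dpi, days following that start). They are the animals whose bulk libraries at 150 dpi carry a tumour label, and they make up 14 of the 240 libraries of the series and 7 of its 37 bulk animals. The genotype of all 7 is given as Trp53-/- Nf1-/-. Tumor_16713, Tumor_16840 and Tumor_21349 were from females, and Tumor_16839, Tumor_16844, Tumor_21256 and Tumor_21354 from males. Each tumour has 2 libraries, which were summed. The spread among the tumours was set beside that among the 7 animals of the same genotype (CKO in the labels) sampled in bulk at 90 dpi, 3 male and 4 female, whose source is given as oligodendrocyte precursor cells (OPCs). Bulk samples of 6 wild-type (WT) animals at 150 dpi, 4 male and 2 female, gave a comparison at the tumours' own time. Unlike the tumours, only CKO_20642, CKO_20647 and CKO_22212 among the CKO animals have 2 libraries, also summed. The other CKO animals and all WT animals have 1 each, so the spreads compared do not rest on equal numbers of libraries. In all these groups tdT-positive cells were cut from 10 µm frozen sections by laser capture microdissection, and the RNA was amplified linearly with T7 polymerase. The driver of recombination is not given in the sources used here, nor is how the 2 libraries of an animal were made, so the differences between those libraries may be technical.

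OPCs are dividing glial cells that give rise to the oligodendrocytes that myelinate axons, and they are a known cell of origin of glioma in mice. Trp53 encodes p53, which arrests or kills cells with damaged DNA, and Nf1 encodes neurofibromin, which restrains RAS and thereby the MAPK cascade. Tumours started by the same 2 losses can go on to acquire further changes of their own, such as extra copies of a cyclin, a receptor or a transcription factor gene, and each takes up its own mix of microglia, macrophages and vessels. A bulk library reads all cells under the laser, so fewer cells of a type and less RNA per cell cannot be told apart.

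Tumour totals were 4.91 M counts (M, 1000000) in Tumor_21256, 7.82 M in Tumor_16713, 8.76 M in Tumor_16839 and 24.0 to 31.3 M in the other 4, against 4.11 to 30.05 M in the CKO animals and 2.32 to 14.8 M in the WT animals. The 2 libraries of a tumour correlated across genes with r of 0.93 to 0.98. Animal CKO_20647 stood apart, with r of 0.78 between its libraries against 0.96 in CKO_20642 and in CKO_22212. The overall difference and the list ratios are also given without CKO_20647. Its Met level, for example, was 602.7 CPM (TMM-scaled counts in each 1000000) in one library and 0 in the other. Transcripts of low GC content lay higher in Tumor_16839 and Tumor_21256 than in the median tumour, by a median of 0.65 and 0.55 log2 units over the more abundant genes of lowest GC content. The mean of the OPC marker list was 7.86 to 8.89 log2 CPM in the tumours and 6.88 to 7.44 in the CKO animals, so markers of the labelled lineage were present in both. The neuron list had a mean of 3.87 to 5.92 log2 CPM in the tumours and 8.24 to 9.45 in the CKO animals, and RNA of other cells under the laser cannot be told apart from lower expression in the captured cells.

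The tumours deviated further from one another than the CKO animals did. For each gene, an animal's distance from the median of its group was divided by the SD that CKO animals show at that expression level, and the median over 16349 genes was taken. This deviation was 0.66 in Tumor_21354, the lowest tumour, 0.95 in Tumor_21349, the middle one, and 1.48 in Tumor_21256, the highest. In the CKO animals it ran from 0.43 in CKO_22154 through 0.56 in CKO_22146 to 1.17 in CKO_20647, so the groups overlapped only through CKO_20647. The group means were 1.02 ± 0.29 and 0.62 ± 0.25 (SD, n = 7 each), a difference of 0.40 with p = 0.0186 by an exact two-sided permutation test over 3432 assignments. Without CKO_20647, the expected SD being taken from the remaining CKO animals, the difference was 0.58 (exact permutation p = 0.00117). The 3 tumours with the fewest counts had the 3 largest deviations. Without those 3, called shallow from here on, the difference was 0.16 (exact permutation p = 0.258), whereas with every animal thinned to 4.11 M counts it was 0.42 (exact permutation p = 0.018). With WT animals at 150 dpi in place of the CKO animals the difference was 0.155 (exact permutation p = 0.266). Deviations were then in units of the SD expected from WT animals, being 0.37 to 1.06 in WT animals and 0.51 to 1.14 in tumours. The 0.155 is thus not on the scale of the 0.40.

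**Figure D1:**
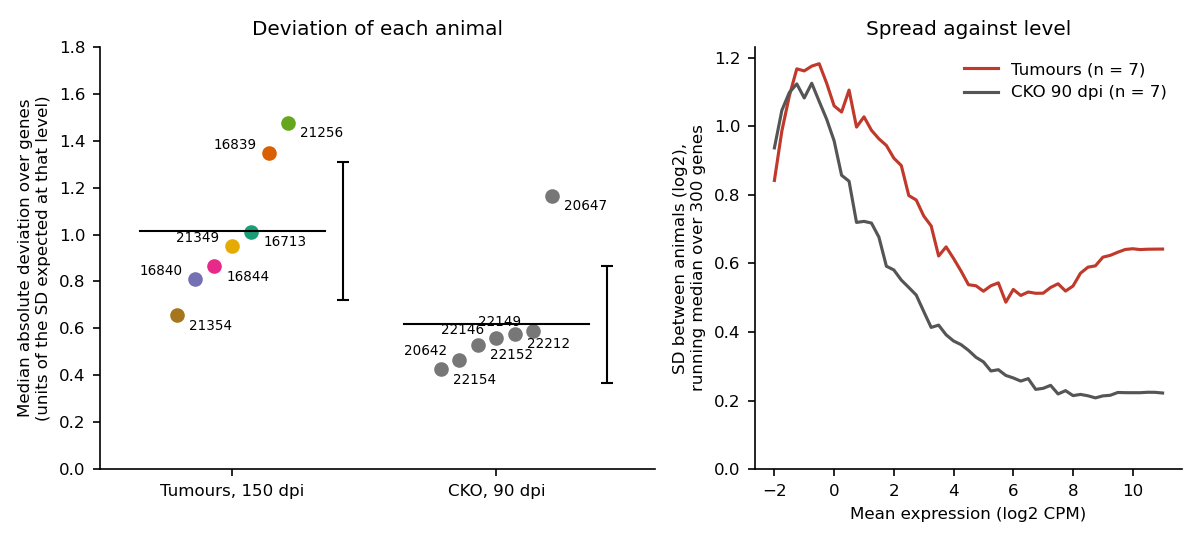
Left, the median absolute deviation over 16349 genes of each tumour and each CKO animal from its group's median, in units of the SD expected at the gene's level (points, animals; lines, group means; bars, ± SD, n = 7). Right, the running median over 300 genes of the SD between animals (log2) against mean expression (log2 CPM); tumours lie above CKO animals except at the lowest levels.

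In 83.96% of the genes the SD among tumours was larger than that expected from CKO animals at the same level, and the median ratio was 1.62-fold, 0.69 on the log2 scale. The excess grew with expression. It was 0.05 log2 units for genes with a mean under 0 log2 CPM, 0.77 between 4 and 6 and 1.48 above 8. Gene by gene, limma's test of the absolute deviations called 0 genes with a larger spread in tumours (0% of those tested) and 0 with a smaller one at an adjusted p under 0.05. At an unadjusted p under 0.05 it gave 1739 larger (10.6%) and 25 smaller (0.153%). On simulated data the test on deviations from the median did not recover genes given a larger spread, so its 0 calls do not show that spreads were alike. With deviations taken from the group mean rather than the median, 193 genes were called. Against the spread between the 2 libraries of one tumour, edgeR's quasi-likelihood F test called 11529 of 17350 genes different among the tumours at an adjusted p under 0.05 (66.4%). The median share of a gene's variance that lay between tumours rather than between libraries was 0.73.

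Most programmes examined varied more than the typical gene. Of 41 gene lists, 35 had a median ratio of tumour SD to expected SD above the 0.69 of all genes. This 0.69 is not matched to the expression level of a list. The sex-linked list, with males and females among the animals, was highest at 2.98 log2 units. The expected SD is that of CKO animals over all genes at the level. The sex-linked genes themselves had a median SD of 3.355 in tumours and 3.317 in CKO animals. Of the other lists, matrix genes led, with cartilage and small proteoglycan genes at 2.64 log2 units and collagens at 2.36, followed by neuroblast markers at 2.35, interferon response genes at 2.31 and class I antigen presentation genes at 2.13. At the other end stood p53 target genes at 0.38, T and NK cell markers at 0.41 and haemoglobin genes at 0.52. Endothelial markers followed at 0.53 and cholesterol synthesis genes at 0.65, and the 1 B cell and neutrophil gene tested was at 0.24. The ratio of all genes at each member's own level was also subtracted, since the excess grew with expression. The median was then −0.02 for oxidative phosphorylation genes, with 6 of 18 above their level, and −0.32 for the targeted genes Trp53 and Nf1. It was 0.15 for OPC markers, 0.32 for ribosomal protein genes, 1.15 for neuroblast markers, 1.505 for interferon response genes and 1.87 for cartilage genes. Of the lists with low ratios, p53 targets had −0.26, cholesterol synthesis genes −0.17 and endothelial markers −0.11. T and NK cell markers had 0.27 and haemoglobin genes 0.46, above their level, at median levels of only −0.05 and −0.37 log2 CPM. Against the 6 WT animals at 150 dpi, with a median of 0.33 over all genes, sex-linked genes had 2.66, cartilage genes had 2.36, collagens 2.10 and interferon response genes 2.01. Without CKO_20647 the median of all genes was 0.99 and 35 lists were above it, with the cartilage list at 2.99, neuroblast markers at 2.75, collagens at 2.69, interferon genes at 2.59, p53 targets at 0.70 and T and NK cell markers at 0.52. Without the 3 shallow tumours the median of all genes was 0.28, while the cartilage list had 2.46, collagens 1.99, interferon genes 1.77 and neuroblast markers 1.47.

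**Figure D2:**
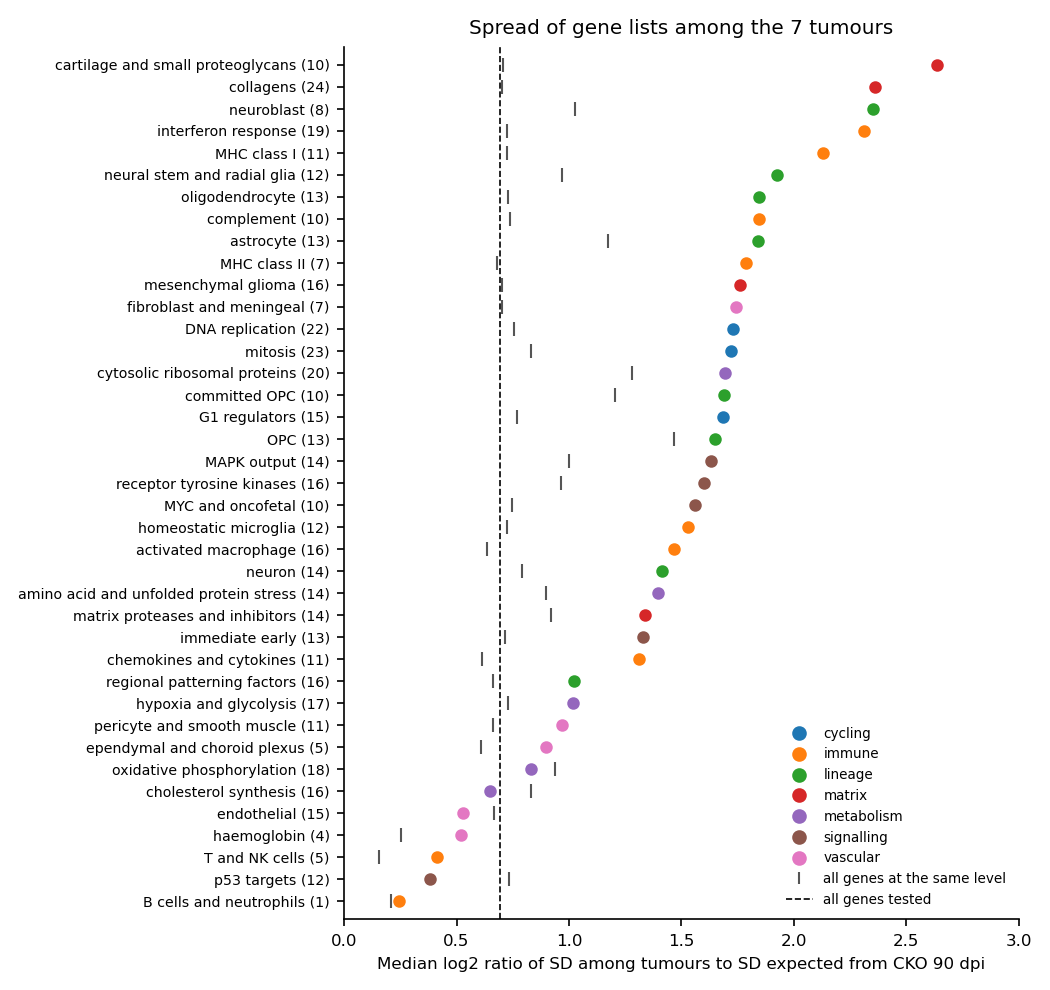
Median log2 ratio of the SD among the 7 tumours to the SD expected from CKO animals at 90 dpi for 39 gene lists (points, coloured by theme; members tested in brackets), with the ratio of all genes at the members' levels (grey ticks) and of all genes tested (dashed line, 0.69). Cartilage, collagen, neuroblast and interferon lists lie farthest to the right, and p53 targets lie left of the dashed line.

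**Figure D3:**
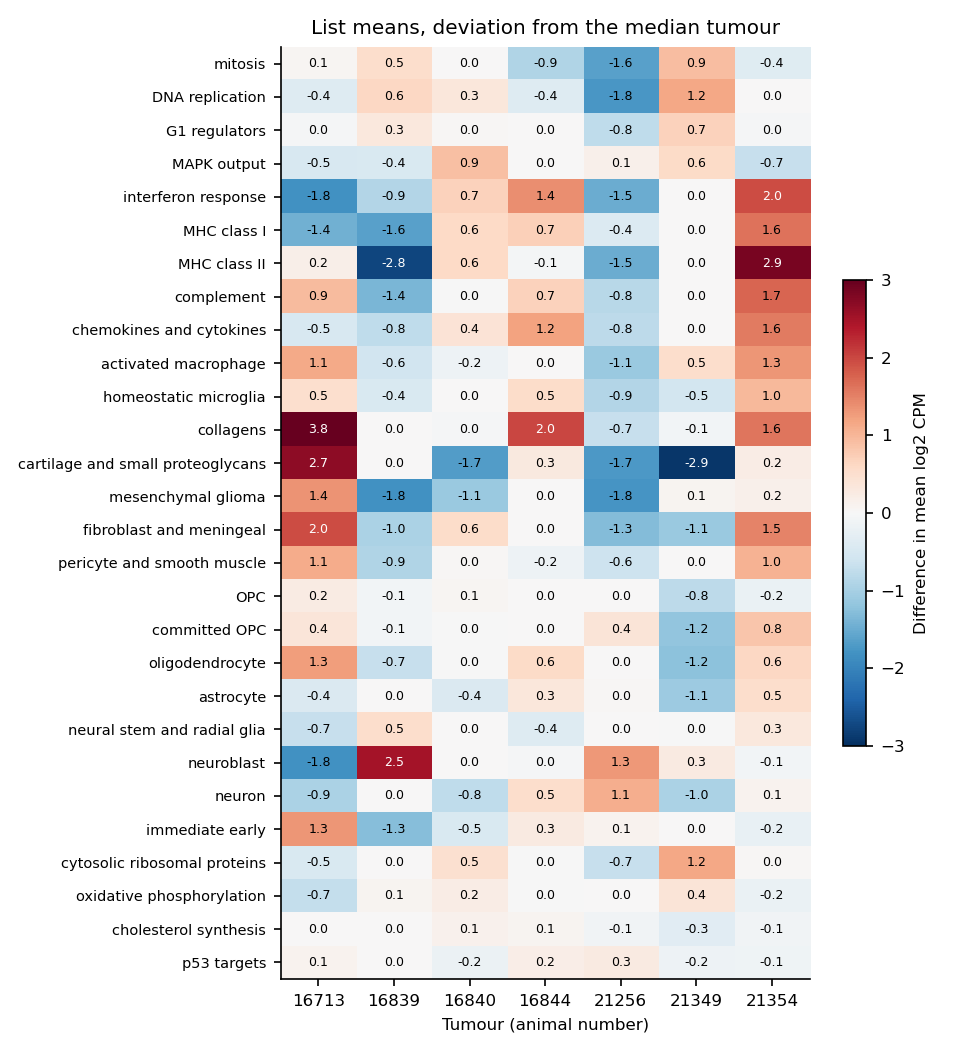
Deviation of each list's mean log2 CPM from the median tumour (columns, tumours; rows, lists; red higher, blue lower, values printed). Tumor_16713 stands out in collagens and cartilage genes, Tumor_16839 in neuroblast markers, Tumor_21354 in MHC class II and interferon genes, and Tumor_21256 by its low mitosis and DNA replication lists.

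Extracellular matrix genes were highest in Tumor_16713. All 24 collagens and all 10 cartilage genes tested differed among the tumours by edgeR (66.4% of all genes did), and 18 and 7 of them had a larger spread than in CKO animals at an unadjusted p under 0.05 (10.6% of all genes). The mean of the collagen list was 7.02 log2 CPM in Tumor_16713, 5.21 in Tumor_16844, 4.81 in Tumor_21354 and 2.53 to 3.21 in the other 4, against 1.84 to 2.22 in CKO animals. Tumor_16713 was the highest for 18 of the 24 collagens. Col6a3, a chain of the beaded-filament collagen VI, was at 0.860 CPM in the lowest tumour, 9.29 in the median one and 866 in Tumor_16713, with 1.41 to 11.0 in CKO animals (edgeR adjusted p = 8.85e-10 among tumours). Its partner chain Col6a2 was at 327 CPM in Tumor_16713 and 92.0 in Tumor_16844, and between 1.72 and 10.75 in the others. The fibrillar collagens Col3a1 and Col1a1 were high in Tumor_16713 and Tumor_21354 instead. Col3a1 was at 94.7 CPM in Tumor_16713, 75.2 in Tumor_21354 and at most 2.08 elsewhere, and Col1a1 was at 151, 54.8 and at most 8.79. Col5a3 was among the least spread of the list, between 2.42 and 13.2 CPM, and its call ended without Tumor_16839 and without the 3 shallow tumours (edgeR or limma-voom, highest adjusted p = 0.299).

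The cartilage list had a mean of 7.17 log2 CPM in Tumor_16713, 4.48 in the median tumour and 1.55 in Tumor_21349. Fmod, encoding the collagen-binding proteoglycan fibromodulin, was at 0.6715 CPM in Tumor_21349, 22.1 in the median tumour and 1474 in Tumor_16713, while CKO animals did not exceed 1.70 (edgeR adjusted p = 1.12e-12 among tumours). Acan, encoding aggrecan, ran from 5.34 through 30.4 to 937 CPM, again with Tumor_16713 highest. Matn1, a cartilage matrilin, had its peak in Tumor_16839 at 48.2 CPM, and Matn4 ran from 27.3 to 111. Col11a1, a cartilage and glioma matrix collagen, was at 3232 CPM in Tumor_16713, 1466 in Tumor_16844 and 63.8 in Tumor_16840, the lowest. In the mesenchymal glioma list, Tumor_16713 was highest for 11 of 16 genes, among them Tnc (tenascin-C), at 718 CPM against 10.3 to 156 in the other tumours. Fn1, encoding fibronectin, was at 1096 CPM in Tumor_16713 and at 23.8 to 195 in the others. Matrix proteases and their inhibitors were less spread, with a median ratio of 1.34 log2 units. Mmp2, encoding gelatinase A, was at 1.075 CPM in Tumor_21256 and at 15.15 to 61.8 in the other 6.

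Markers of fibroblasts and of mural cells were highest in Tumor_16713 and Tumor_21354. The fibroblast and meningeal list had a mean of 4.52 log2 CPM in Tumor_16713, 4.05 in Tumor_21354, 2.55 in Tumor_16844, the second tumour in collagens, and 1.25 to 3.10 in the other 4, and its leading gene Mgp, matrix Gla protein, was at 860 CPM in Tumor_16713, 136 in Tumor_21354, 123 in Tumor_16844 and 9.46 to 24.0 in the rest. The pericyte and smooth muscle list was at 3.78 and 3.71 in the same 2 tumours, 2.52 in Tumor_16844 and 1.77 to 2.71 in the other 4. Summed over all 8 fibroblast markers the level was 38.1 to 986 CPM in tumours and 32.0 to 51.0 in CKO animals, and the 11 mural markers summed to 133 to 409 CPM in tumours and 224 to 401 in CKO animals. No fibroblast or mural marker was at 0 in all tumours. The part of these cells in the matrix differences was not tested.

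Immune programmes ranked the tumours in another order. The mean of the interferon response list was 6.48 log2 CPM in Tumor_21354, 5.91 in Tumor_16844, 5.22 in Tumor_16840, 4.52 in Tumor_21349, 3.63 in Tumor_16839, 3.03 in Tumor_21256 and 2.71 in Tumor_16713, with 0.77 to 2.28 in CKO animals. The 3 lowest were the 3 shallow tumours, and the part of depth in this order was not tested. All 19 genes differed among the tumours by edgeR, as did 66.4% of all genes, and 15 had a larger spread than in CKO animals at an unadjusted p under 0.05, as did 10.6% of all genes. Gbp2, a guanylate-binding GTPase of the interferon response, was at 2.15 CPM in the lowest tumour, 14.0 in the median and 113 in Tumor_21354, and CKO animals did not pass 3.55. Isg15, a ubiquitin-like modifier, ran from 1.54 CPM in Tumor_16713 through 12.25 to 72.6 in Tumor_16844. Usp18, the protease that removes it, ran from 1.98 in Tumor_16713 through 12.4 to 92.1 in Tumor_21354. Bst2, the virus-tethering membrane protein tetherin, was spread less, from 4.52 through 18.2 to 39.7 CPM, and Ifit2 ran from 24.3 to 78.9, with a call that ended without the 3 shallow tumours (edgeR adjusted p = 0.0593). Interferons act through STAT and IRF factors, of which some bind a pair of GAAA repeats, and the promoters of 3 of these genes are shown with that motif. Each is 300 bases of the mouse genome (GRCm38.p6, RefSeq), from 250 before to 50 after the start site, and capitals mark every match of GAAANNGAAA on either strand, overlapping matches forming 1 stretch. Gbp2 is on the plus strand at chr3:142620413-142620712, Isg15 on the minus strand at chr4:156200769-156201068 and Bst2 on the minus strand at chr8:71537423-71537722.
Gbp2: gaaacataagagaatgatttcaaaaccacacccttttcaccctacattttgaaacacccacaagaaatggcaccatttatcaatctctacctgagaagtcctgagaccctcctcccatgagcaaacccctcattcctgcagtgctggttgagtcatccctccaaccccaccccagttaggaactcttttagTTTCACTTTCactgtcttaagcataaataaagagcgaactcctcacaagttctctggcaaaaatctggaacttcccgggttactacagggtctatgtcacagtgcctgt
Isg15: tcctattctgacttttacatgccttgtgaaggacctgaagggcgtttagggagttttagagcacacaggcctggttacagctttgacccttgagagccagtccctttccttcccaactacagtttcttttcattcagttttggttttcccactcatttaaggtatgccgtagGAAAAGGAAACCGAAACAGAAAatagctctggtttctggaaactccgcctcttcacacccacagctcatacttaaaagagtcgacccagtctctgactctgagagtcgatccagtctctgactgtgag
Bst2: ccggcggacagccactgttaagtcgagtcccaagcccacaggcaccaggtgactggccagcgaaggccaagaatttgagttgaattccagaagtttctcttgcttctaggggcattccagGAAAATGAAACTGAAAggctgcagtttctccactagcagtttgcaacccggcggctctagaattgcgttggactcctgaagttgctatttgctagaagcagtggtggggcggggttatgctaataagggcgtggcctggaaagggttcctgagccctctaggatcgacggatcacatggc
The motif was present in 10 of the 15 interferon response genes with a promoter in the table (66.7%), in 3 of 9 class I presentation genes (33.3%) and in 458 of 11733 promoters of all tested genes (3.9%). Ifit2 had no match in its windows. These are letter matches and no measure of binding.

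Antigen presentation genes were highest in Tumor_21354 too. Tumor_21354 was highest for 9 of 11 class I genes and for all 7 class II genes. The class I list was lowest in the shallow tumours, at a mean of 3.73 to 4.95 log2 CPM against 5.35 to 6.98 in the others. The class I gene H2-D1 was at 67.9 CPM in the lowest tumour, 324 in the median and 1032 in Tumor_21354, against 29.7 to 82.4 in CKO animals. Among its peptide-supply partners, Psmb9, an immunoproteasome subunit, was at 94.8 CPM in Tumor_21354 and 3.40 in Tumor_16713, and Tap1, the peptide transporter, was at 75.7 in Tumor_21354 and 1.75 in Tumor_16839. Class II genes had the widest range of any immune list, from a mean of 0.26 log2 CPM in Tumor_16839 to 5.88 in Tumor_21354. Cd74, the class II invariant chain, was at 2.83 CPM in Tumor_16839, 39.7 in the median tumour and 418 in Tumor_21354. H2-Ab1, a class II beta chain, ran from 0.269 through 12.3 to 156, and H2-Eb1 from 0.673 through 4.06 to 34.9. The H2-Eb1 call ended without Tumor_21354 (edgeR adjusted p = 0.2015). Cxcl10, a chemokine that draws T cells, was at 2.58 CPM in Tumor_21256 and 144 in Tumor_21354. Of 13 T and NK markers only 5 could be tested, and all 13 together summed to 2.69 to 36.5 CPM in the tumours.

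The activated macrophage list had a mean of 4.10 log2 CPM in Tumor_21354, the highest, 3.91 in Tumor_16713 and 1.66 in Tumor_21256, the lowest. Its single genes differed in order. Tumor_21354 was highest for 5 of the 16 tested, and Tumor_16713 and Tumor_16844 for 4 each. Gpnmb, a lysosomal glycoprotein of activated macrophages that gliomas can also express, was at 952 CPM in Tumor_16844, 709 in Tumor_16713, 124 in Tumor_21349 and 7.31 to 35.3 in the other 4 (edgeR adjusted p = 1.89e-10). Lyz2, lysozyme of myeloid cells, was at 511 CPM in Tumor_21354, 406 in Tumor_16713, 306 in Tumor_21349 and 11.0 to 72.4 in the rest, so the 2 genes did not share an order. P2ry12, the purinergic receptor of resting microglia, ran from 13.7 CPM in Tumor_21349 through 34.6 to 52.25, and its call ended without Tumor_21349 (edgeR adjusted p = 0.232). The mean of the homeostatic microglia list was highest in Tumor_21354 at 5.67 log2 CPM and lowest in Tumor_21256 at 3.83. Complement genes were highest in Tumor_21354 as well, with a list mean of 6.20 against 3.08 in Tumor_16839. C3, the central complement component, was at 60.3 CPM in Tumor_21354 and 1.35 to 15.5 in the others. Summed over their 12 genes, homeostatic microglial markers were at 355 to 856 CPM in tumours and 277 to 370 in CKO animals. Their part in the interferon and class II differences was not tested.

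Proliferation genes ranked the tumours from Tumor_21349, the highest, to Tumor_21256, the lowest. The mitosis list had a mean of 6.65 log2 CPM in Tumor_21349, 6.26 in Tumor_16839, 5.73 in the median tumour, Tumor_16840, 4.83 in Tumor_16844 and 4.10 in Tumor_21256, and it was −0.32 to 2.35 in CKO animals. All 23 mitosis genes and all 22 DNA replication genes differed among the tumours by edgeR, beside 66.4% of all genes. Tumor_21349 was highest for 17 of the 23 and Tumor_21256 lowest for 21. Bub1b, a spindle checkpoint kinase, was at 4.73 CPM in Tumor_21256, 32.5 in the median tumour and 69.0 in Tumor_21349. Kif11, the spindle motor Eg5, ran from 18.3 in Tumor_21256 through 63.8 to 180 in Tumor_16839. Prc1, which bundles the central spindle, was among the least spread, from 35.9 through 74.9 to 114 CPM. The SD of the mitosis list mean was 0.86 log2 units in both tumours and CKO animals, at a much lower level in the latter, and 3 of the 23 genes had a larger spread in tumours at an unadjusted p under 0.05, near the 10.6% of all genes.

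DNA replication genes had the same extremes, with a list mean of 6.00 log2 CPM in Tumor_21349 and 3.08 in Tumor_21256. Mcm3, a subunit of the replicative helicase, was at 106 CPM in Tumor_21349, 38.5 in the median tumour and 2.58 in Tumor_21256. Rrm2, the small subunit of ribonucleotide reductase, departed from this order, being at 770 CPM in Tumor_16839, 142 in Tumor_21349, 37.1 in the median tumour and 1.72 in Tumor_21256. Cdc45, a helicase activator, was highest in Tumor_16844 at 59.3 CPM and did not pass 21.5 elsewhere. E2f1, the transcription factor of S phase entry, ran from 6.78 to 21.4 CPM, and its call ended under 4 settings, among them without Tumor_16713 or without Tumor_16844 (edgeR or limma-voom, highest adjusted p = 0.252). Cyclin D genes, which drive G1, differed in kind between tumours. Ccnd1 was at 2418 CPM in Tumor_21349 and 2002 in Tumor_21354 and at 335 to 865 in the other 5, whereas Ccnd2 was highest in Tumor_16840 at 1424 CPM and at 36.6 to 370 elsewhere. Cdk6, the kinase that D cyclins activate, was at 227 CPM in Tumor_21349, 149 in Tumor_16839, 47.5 in the median tumour and 17.0 in Tumor_16840. Cdkn1c, encoding the inhibitor p57, ran from 0.380 CPM in Tumor_16840 to 26.4 in Tumor_21354. Without the 3 shallow tumours the median ratio of the G1 list was 0.59 log2 units instead of 1.69.

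Single tumours carried extreme levels of single receptor or MYC family genes. Met, the receptor of hepatocyte growth factor, was at 2492 CPM in Tumor_21349, 208 in Tumor_16840, 13.4 in the median tumour and 1.29 in Tumor_21256 (edgeR adjusted p = 1.12e-12 among tumours). The level in Tumor_21349 was present in both of its libraries, at 2843 and 2084 CPM. The nearest genes on the map did not share it, Cav1, Capza2 and St7 being at the tumour median in Tumor_21349. CKO animals had 5.895 to 12.55 CPM of Met apart from CKO_20647 at 350.5. Egfr, the epidermal growth factor receptor, was highest in Tumor_21354 at 306.5 CPM, then 169 in Tumor_16839 and 135 in Tumor_16713, and at 15.5 to 43.0 in the other 4. Pdgfra, the OPC growth factor receptor, was at 2630 CPM in Tumor_21256 and at 556 to 1389 in the others. Kit ran from 28.2 to 185 CPM with Tumor_16839 highest, and Fgfr1 ran from 41.9 to 88.2, with a call that ended without Tumor_16839 and without the 3 shallow tumours (edgeR, highest adjusted p = 0.0951). Mycn was at 1141 CPM in Tumor_16839, 111 in Tumor_21256 and 5.92 to 69.1 in the other 5 (edgeR adjusted p = 5.26e-13). Myc itself stayed between 68.1 and 213 CPM in all 7. Lin28b, an RNA-binding protein of fetal cells, was at 21.1 CPM in Tumor_16840 and 7.96 in Tumor_21256 and at most 2.19 in the rest. Igf2, a fetal growth factor, was at 386 CPM in Tumor_16713 and 12.4 to 82.8 in the others.

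MAPK output genes, which RAS signalling induces and many of which restrain it, were led by Tumor_16840, with a list mean of 6.45 log2 CPM, and by Tumor_21349 with 6.13, while Tumor_21354 had 4.87. Spry4 was at 573 CPM in Tumor_16840, 216 in Tumor_21349 and 34.5 to 83.0 in the other 5. Dusp6, the phosphatase of ERK, was at 374 CPM in Tumor_21349, 322 in Tumor_16840 and 33.9 in Tumor_16713. Etv1, an ETS factor downstream of ERK, instead peaked in Tumor_16839 at 3098 CPM and was at 138 to 1149 in the others. Nf1 transcript was 149.5 to 273 CPM in the tumours and 149.5 to 302 in CKO animals, and its call among tumours ended without the 3 shallow ones (edgeR adjusted p = 0.1001). Trp53 was 18.5 to 77.8 CPM in tumours and 15.9 to 38.5 in CKO animals. These totals include any RNA of the disrupted alleles and of other cells. The p53 target list was among the least spread, its mean having a range of 0.45 log2 units between tumours. Of its 12 genes, 9 differed among the tumours by edgeR, a share near the 66.4% of all genes. At an unadjusted p under 0.05 in limma's test, 3 had a larger spread than in CKO animals (10.6% of all genes). The calls of Plk2, Trp53inp1 and Eda2r among tumours held under all settings tried. Plk2 was at 18.2 CPM in Tumor_16839 and 216 in Tumor_16840.

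**Figure D4:**
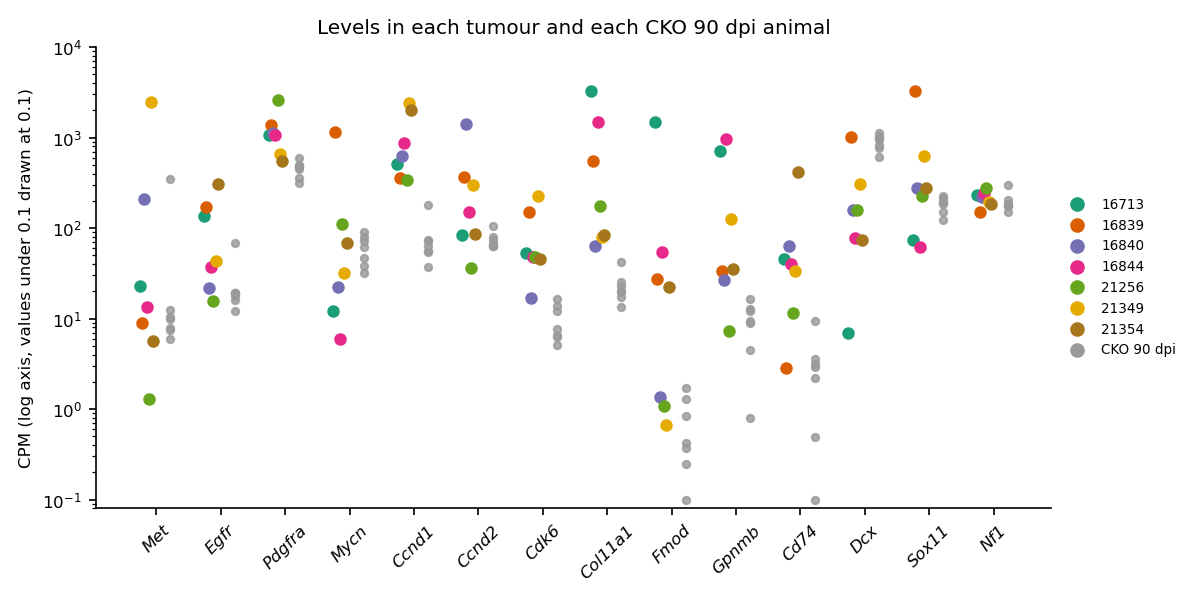
CPM (log axis, values under 0.1 drawn at 0.1) of 14 genes in each tumour (coloured points) and each CKO animal at 90 dpi (grey points). For Met (Tumor_21349), Mycn (Tumor_16839), Fmod (Tumor_16713) and Cd74 (Tumor_21354) 1 tumour lies far above the others, whereas Nf1 lies between 149.5 and 302 in all animals.

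Lineage markers varied on several axes. OPC markers had the narrowest range of the lineage lists, 1.03 log2 units, with Tumor_21349 lowest at a mean of 7.86. Olig2, the lineage factor of these cells, was between 138 and 333 CPM in all 7 tumours, and Ptprz1, a phosphatase receptor of the lineage, had a median of 2383 and a highest value of 4088. Vcan, encoding versican, ran from 717 CPM in Tumor_16840 to 5915 in Tumor_16713. Markers of committed OPCs were lowest in Tumor_21349, with a list mean of 5.33 against 6.43 to 7.33 in the other 6. Neu4, a sialidase of this stage, was at 1.98 CPM in Tumor_21349 and at 31.4 to 172 elsewhere. Enpp6, which marks newly forming oligodendrocytes, was at 73.3 CPM in Tumor_21354, 41.4 in Tumor_16840 and 3.82 to 9.22 in the others.

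The oligodendrocyte list ran from a mean of 2.88 log2 CPM in Tumor_21349 to 5.36 in Tumor_16713, against 5.64 to 6.72 in CKO animals. The myelin genes Mobp and Mbp differed between the 2 libraries of Tumor_16713. Mobp, a myelin protein gene, was at 337 CPM in one library of Tumor_16713 and 0.967 in the other, and Mbp at 1694 and 49.7. The median share of variance between tumours was 0.40 for the oligodendrocyte list. The Mobp call ended without Tumor_16713, without the 3 shallow tumours and with limma-voom (highest adjusted p = 0.9345). The calls of Cnp and Ugt8a held under all 14 settings tried, Ugt8a, an enzyme of myelin lipid synthesis, running from 106 CPM in Tumor_21354 to 481 in Tumor_21256.

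The neuroblast list was highest in Tumor_16839 at a mean of 7.96 log2 CPM, then 6.76 in Tumor_21256, and lowest in Tumor_16713 at 3.63. Dcx, the microtubule protein of migrating neuroblasts, was at 1006 CPM in Tumor_16839, 156.5 in the median tumour and 6.92 in Tumor_16713, and CKO animals had 608 to 1121. Sox11, a neuronal and glioma SOX factor, was at 3300 CPM in Tumor_16839 and 61.3 to 630 in the others. Eomes, of intermediate neuronal progenitors, was at 73.1 CPM in Tumor_21256 and 58.4 in Tumor_16844, but at 0 in Tumor_16713 and 0.247 in Tumor_21349. Gad1 and Gad2, which make GABA, were also lowest in Tumor_16713. Gad1 ran from 3.185 CPM there to 248 in Tumor_21256, with 1063 to 1790 in CKO animals. Gad2 ran from 4.50 to 313 in Tumor_16844, with 973 to 1674 in CKO animals. The forebrain factor Dlx1 was also lowest in Tumor_16713, at 0.110 CPM, where the median tumour had 12.1. Hoxa5, a factor of the hindbrain and cord, was at 10.5 to 17.5 CPM in 5 tumours and at 0.215 and 1.13 in Tumor_21256 and Tumor_21354. Of 14 neuron genes 11 differed among tumours, beside 66.4% of all genes, while Grin2b, a glutamate receptor subunit at 36.6 to 130 CPM in tumours and at least 1667 in CKO animals, did not pass (edgeR adjusted p = 0.448).

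Astrocyte and stem cell genes differed in other tumours. The astrocyte list had a mean of 5.63 log2 CPM in Tumor_21349, the lowest, and 7.25 in Tumor_21354, the highest. It was 6.28 in Tumor_16713 and 6.74 in Tumor_21256, the tumours in which Agt and Gja1 peaked. Gja1, the astrocytic connexin, was at 4.31 CPM in Tumor_21349, 29.55 in the median tumour and 180 in Tumor_21256. Agt, angiotensinogen, ran from 5.76 in Tumor_16840 to 66.8 in Tumor_16713. Fabp7, a lipid-binding protein of radial glia, was at 151 CPM in Tumor_16713 and 776 to 3037 in the others (edgeR adjusted p = 1.57e-10). Nes, the intermediate filament nestin, was lowest in Tumor_21256 at 12.7 CPM and at 37.9 to 140 elsewhere. Notch1 ran from 134.5 to 266.

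Among metabolic and stress programmes several extremes were of 1 gene in 1 tumour. Ribosomal protein genes were highest in Tumor_21349 for 19 of 20, with a list mean of 8.74 log2 CPM against 6.88 to 8.06. Rplp0, a stalk protein, was at 774 CPM in Tumor_21349 and 127 to 303 in the others. Oxidative phosphorylation genes had a list range of 1.11 log2 units with Tumor_16713 lowest, and cholesterol synthesis genes had 0.49, less than the 0.76 among CKO animals. Within the latter, Dhcr7, the last enzyme of the pathway, was at 598 CPM in Tumor_21354 and 23.2 to 68.1 in the others. Hsp90b1, the endoplasmic reticulum chaperone GRP94, was at 9188 CPM in Tumor_16713 and 726 to 1572 in the others, in both libraries of Tumor_16713 (8114 and 9992 CPM). Its call ended without the 3 shallow tumours, Tumor_16713 being one of them (edgeR adjusted p = 0.0609). The immediate early list had a mean of 2.26 to 4.88 log2 CPM in tumours and 5.17 to 6.88 in CKO animals, and it was highest in Tumor_16713, where Fosb was at 64.1 CPM against 0.526 to 21.8 in the others. Acap2, a GTPase-activating protein for ARF6, was listed at 0 in both libraries of Tumor_16713 and at 38.7 to 71.3 CPM in the other tumours. At the steady end, only genes with a tumour mean above the median of tested genes, 4.15 log2 CPM, were ranked. The 4 with the lowest ratio were Madd, Rab23, Wnk1 and Ppp1r12c, none of them called. Madd was between 45.0 and 51.6 CPM in all 7 tumours, and Wnk1, a kinase of ion transport, between 538 and 609.

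Several of the single-gene extremes lay in blocks of neighbouring genes that were high together in 1 tumour. Along each chromosome, windows of 10 consecutive genes whose median deviated by 1 log2 unit or more from the median tumour were joined into runs, a window size chosen after the values were seen. Over the more abundant genes there were 71 runs in tumours and 1 in CKO animals, in CKO_20647. Over all tested genes there were 247 in tumours and 29 in CKO animals, of which 19 and 5 passed 2 log2 units. Of the 71 tumour runs, 35 were in Tumor_16839, 20 in Tumor_21256 and 11 in Tumor_16713, all those of Tumor_16713 being lower, and 33 runs were found when they were called anew on values corrected for GC content. Of the 71, 5 deviated by more than 2 log2 units, 1 in each of 5 tumours. After GC correction 5 runs past 2 units were found in the same 5 tumours on the same chromosomes, and after thinning and with the deepest library alone there were also 5. With windows of 50 genes, the size named in the design, 4 runs were found and none passed 2 units. Runs of expression are what is measured here, and copy number was not measured.

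The strongest block was in Tumor_16840 on chromosome 7 from 29893333 to 31155896 (GRCm38). Its 21 genes were a median of 5.14 log2 units above the median tumour, 5.13 and 5.18 in the 2 libraries, and 49 of the 53 genes tested in the span were at least 1 unit higher. Capns1, the small calpain subunit, was at 7753 CPM against 99.8 to 356 in the other tumours, and Clip3, a microtubule-linking protein, at 8948 against 183 to 316. Kmt2b, a histone methyltransferase, was at 2287 against 29.9 to 66.7. Tyrobp, the microglial signalling adaptor, lies inside the block but was at 29.2 CPM, within the 19.8 to 87.6 of the others, and Mag, a myelin gene in the same span, was at 23.5 against 1.06 to 18.3.

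In Tumor_21354 a block near the end of chromosome 7, from 143823145 to 144939925, held Dhcr7, Shank2, Cttn, Ppfia1, Oraov1 and Ccnd1, at a median of 3.72 log2 units. All 8 genes tested in the span were at least 1 unit higher. Cttn, the actin regulator cortactin, was at 918 CPM against 39.6 to 67.0 in the other tumours. In Tumor_21349, whose Ccnd1 was as high, the neighbour Oraov1 lay at 0.03 log2 units from the median tumour.

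Chromosome 12 carried a block in 2 tumours. In Tumor_16839 it spanned 10322866 to 40248504 with 64 genes, a median of 2.16 log2 units, and took in Mycn, Odc1, Rrm2, Sox11, Rsad2 and Etv1. Odc1, the rate-limiting enzyme of polyamine synthesis, was at 1768 CPM there against 71.8 to 269. Of the 120 genes tested in the span, 86 were at least 1 unit higher. In Tumor_21349 a shorter block from 30893326 to 32061296 held 8 genes at a median of 2.26, with Cbll1, an E3 ligase, at 1084 CPM and the receptor Gpr22 at 678. The same genes were at a median of 3.12 in Tumor_16839. Without Sox11, its only member inside the block, the neuroblast list of Tumor_16839 had a mean of 7.43 log2 CPM and was still the highest, the next being 6.601. Dcx and Sox4, also of that list, were kept, though they lay in other runs of Tumor_16839. These were on chromosome X, at a median of 1.22 log2 units, and on chromosome 13, at 1.12. Without Rrm2 the DNA replication list of Tumor_16839 was at 5.25 instead of 5.45.

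The block of Tumor_16844 on chromosome 16, from 16896469 to 23360350, had 41 genes at a median of 2.11 log2 units, with 78 of 92 tested genes at least 1 unit higher. It spanned Crkl, Etv5, Cdc45, Rfc4 and Sdf2l1. Etv5, an ETS factor downstream of ERK, was at 1150 CPM against 134.8 to 514 in the others, and Rfc4, a clamp loader subunit, at 125.5 against 3.23 to 24.4. Whole chromosomes deviated less. The median over chromosome X was 0.94 log2 units higher in Tumor_16839 (0.67 after GC correction), and none of the 20 chromosome medians passed the test of a larger or smaller deviation in tumours than in CKO animals (exact permutation test, lowest adjusted p = 0.14), though taking deviations from the group median sets most medians to 0.

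**Figure D5:**
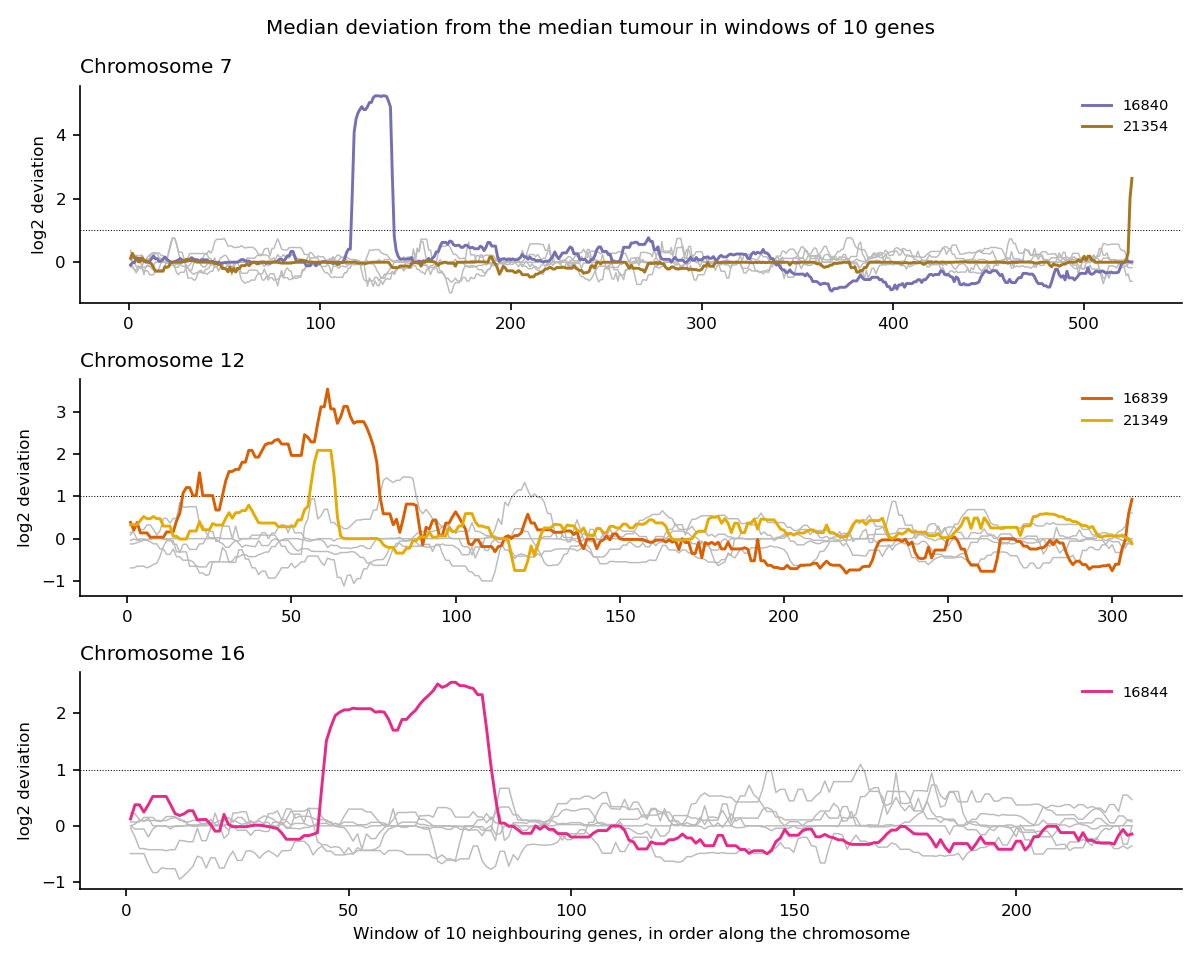
Median deviation from the median tumour (log2) in sliding windows of 10 genes ordered along chromosomes 7, 12 and 16, for all 7 tumours (those with a block in colour, the rest grey; dotted line, 1 log2 unit). The peak of Tumor_16840 on chromosome 7 reaches above 5, and Tumor_16839 and Tumor_21349 overlap on chromosome 12.

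Near-identical copies elsewhere in the genome make the levels of Rrm2, Acap2, Cdk6, Lyz2, Etv1, Etv5, Odc1, Cttn, Trp53 and the ribosomal protein genes uncertain. How their reads were divided between copies cannot be seen in these counts.

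Few genes were called different between the sexes of the tumours. Between the 4 male and 3 female tumours edgeR's quasi-likelihood test called 2 of 16786 genes at an adjusted p under 0.05 (0.0119%), Eif2s3y and Ddx3y, which are on chromosome Y. Eif2s3y had a mean of 102 CPM in males and 0.177 in females (edgeR adjusted p = 0.00923), and Ddx3y 112 and 0.0479 (edgeR adjusted p = 0.0199). Uty and Kdm5d, also of the sex-linked list, were not called. Uty was at 92.4 and 4.17 CPM (edgeR adjusted p = 0.485) and Kdm5d at 86.8 and 17.25 (edgeR adjusted p = 0.556). The small count therefore does not show that the sexes were alike. Met had a mean of 7.73 CPM in males and 964 in females (edgeR adjusted p = 0.727), every female tumour lying above every male one. DESeq2's Wald test called 77. Y-linked levels also varied among the males, Ddx3y being at 34.9 CPM in Tumor_16844, 42.5 in Tumor_21354, 148 in Tumor_16839 and 194 in Tumor_21256.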

How the data were processed

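RNA was measured in bulk laser-captured cells of tumours, CKO and WT animals. The deposited file holds expected counts per gene, which per the submitters' processing notes come from RSEM with Bowtie2 on GRCm38, versions not given in the sources used here. Libraries of an animal were summed and the expected counts rounded. Genes were kept by filterByExpr (minimum count 10, total 15), scaled by TMM (edgeR 4.0.16, R 4.3.3) and expressed as log2 CPM. Expected SD came from a running median over 300 genes in CKO animals. Spread per gene was tested with limma 3.58.1 on absolute deviations matched on the mean, the overall spread with an exact permutation test, differences among tumours with edgeR's quasi-likelihood F test on the 14 libraries, and DESeq2 1.42.0 was an alternative. P-values were adjusted by Benjamini-Hochberg over all genes tested. The F test among tumours measures the 2 libraries of an animal as replicates, so its p-values cover only the spread between those libraries. GC content came from GENCODE vM21 transcripts.

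For each list the 4 most and 2 least spread members were eligible to be named, with receptor, MYC family and G1 genes at least 2 log2 units above the median tumour. Others, such as Pdgfra, Myc, Ccnd1, Igf2, Acap2, Tyrobp, Mag and the genes of the neighbouring blocks, were named after their values were seen. The gliomas and the gene lists were chosen with earlier results of these data known. The scripts were tested on simulated data. Some genes are not reported here.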

Additional observations from a re-analysis of the deposited data

Results flagged for a closer look

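Values standing apart from the rest of their group of 7 animals by Dixon's criterion (the gap to the nearest animal over the whole range, at its critical value for the 95% level) are given here, the criterion being applied to log2 CPM for genes, to list means and to deviations. Chance alone sets apart about 1 in 20 groups, but that rate does not apply to the 98 genes looked at, many of which were named because 1 tumour was extreme. The 41 lists were also looked at. In Tumor_16840 these were Capns1 at 7753 CPM, Clip3 at 8948 and Kmt2b at 2287, all in the block on chromosome 7, and Rab23 at 55.84. In Tumor_21354 they were Dhcr7 at 598.4 CPM and Cttn at 918.1, in the other block on that chromosome. Odc1 at 1768 CPM stood apart in Tumor_16839 and Gpr22 at 677.8 in Tumor_21349, each in the block of its tumour.

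Tumor_16713 stood apart in Hsp90b1 at 9188 CPM, Mobp at 146.6, Dlx1 at 0.1098 and Acap2, listed at 0. Low values set apart Mmp2 at 1.075 CPM in Tumor_21256, Neu4 at 1.979 in Tumor_21349, and Fgfr1 at 41.88 and Cnp at 55.21 in Tumor_16839. Ppp1r12c, one of the steadiest of the more abundant genes, was at 38.51 CPM in Tumor_16844. The OPC list was the one list with a tumour apart, Tumor_21349 at a mean of 7.862 log2 CPM. Among CKO animals CKO_20647 stood apart in its deviation over all genes, at 1.166.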

How the results depend on the processing

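The difference in overall spread, 0.40, was larger than 0 under the alternatives run, but it was 0.124 with no filter on low counts (exact permutation p = 0.476), 0.155 against WT animals, 0.163 without the 3 shallow tumours, and, with deviations from the group mean, 0.1502 against WT animals and 0.212 without the 3 shallow tumours. Leaving out a tumour or a CKO animal gave 0.325 to 0.583. Where the comparison animals changed, the expected SD was taken from those in use, so the units changed with them. Genes called for a different spread, 0 here, numbered 193 with the group mean as centre, 543 within sex, 2 against WT animals (39 from the group mean), 138 without the 3 shallow tumours (401 from the group mean), 0 to 90 leaving out an animal, and 33 to 796 doing so from the group mean. Median centring of an odd number of animals gives 1 animal of each gene a deviation of 0, and of an even number none, so leaving out 1 tumour moves these counts by construction. The same holds for chromosome medians, 0 called here, 0 to 20 leaving out an animal and 17 from the group mean. Genes different among tumours numbered 7662 without the 3 shallow ones. Between sexes, DESeq2's Wald test called 77, no filter 5, and leaving out a tumour 0 to 3. Runs numbered 4, with 0 past 2 log2 units, in windows of 50 genes, 247 and 19 with all tested genes (29 and 5 in CKO animals), and 33 after GC correction. The cause of the other changes was not tested. No paired analysis was possible because the animals of the groups compared share no numbers. Low depth in 3 tumours limits what can be said of genes with few counts.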
